A study of Xenopus laevis with 37 samples.

Results

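The genes described here are 17 Xenopus laevis transcripts that were higher in separated foregut endoderm than in the other separated gut layers. Foregut endoderm is the inner layer of the anterior gut of the early embryo. They were chosen from 40271 features of a gene expression table, of which 24303 have a name other than a bare gene model number. A gene was taken when its mean abundance in foregut endoderm was at least 10 TPM (transcript abundance scaled by gene length and by library) and, after adding 1, at least 4 times its mean in each of foregut mesoderm, hindgut endoderm and hindgut mesoderm. The well-known families hhex, pdx1, ptf1a, sfrp, frzb, dkk, otx, sox, fox, mpo, krt, cldn, col, wnt and fzd were left out, which removed 8 features that passed both thresholds. The members, in falling order of foregut endoderm level, were slc6a14.2.L, cfd.L, igsf3.L, gngt2.1.S, Xetrov90011359m.L, ripply3.S, cryba2.S, id4.L, slc5a1.2.L, apoh.L, tbx1.S, cdh2.S, Xetrov90016023m.1, tmem63b.L, fgfrl1.S, shisa2.S and tprg1.S. The endings .L and .S name the copies of a gene on the long and short chromosome sets that this allotetraploid frog carries, and the 2 Xetrov entries are gene models without a symbol.

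The study measured poly(A) RNA in 37 libraries of 15 groups, all at Nieuwkoop-Faber (NF) stage 20, to ask how Wnt and BMP signals set up foregut and hindgut progenitors. Foregut (FG) and hindgut (HG) explants came from embryos held from NF stage 12 to 20 in DMSO vehicle, in 40 μM DMH1, an inhibitor of BMP type I receptors, or in 60 μM BIO, an inhibitor of GSK3 that switches on Wnt/beta-catenin signalling (3 libraries in each of FG_DMSO, FG_DMH1, FG_BIO, HG_DMSO, HG_DMH1 and HG_BIO). A further set came from embryos with the transgene hsp:Dkk1GFP, in which a heat shock promoter drives the Wnt antagonist Dkk1. These were unheated (FG_noHS and HG_noHS) or had 30 min at 37 °C and then 13 °C (FG_HSdkk1 and HG_HSdkk1), with 2 libraries each. Dorsal explants with no agent named gave 3 libraries. Separated layers of foregut and hindgut (FG_endo, FG_meso, HG_endo and HG_meso, 2 libraries each) were the libraries that chose the genes. A tissue field of the labels gives HG_meso as endoderm too, and its group was taken from the title and source name. The labels give all samples, the transgenic ones too, as wild type, and none of the heated samples lacks the transgene, so heat and Dkk1 cannot be told apart. Explants are whole pieces of tissue, and in such bulk samples fewer cells of a type and less RNA per cell cannot be told apart.

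At this stage the gut tube is not yet formed, and its endoderm is patterned along the body axis by signals from the neighbouring mesoderm. Posterior Wnt, FGF and BMP signals promote hindgut fate, while the anterior endoderm, where Wnt activity is kept low by secreted antagonists, goes on to form pharynx, thyroid, lung, liver, stomach and pancreas. The members include regulators of pharyngeal development, surface proteins that shape signalling and adhesion, nutrient transporters and secreted plasma proteins.

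Library depth is not known, since TPM values keep no read counts. Between 15182 and 22769 features reached 1 TPM in a library, the fewest in FG_endo library 1. The libraries headed 23 (HG_noHS) and 25 (HG_HSdkk1) stood apart: 1 gene model without a symbol took 7.11% and 7.19% of their TPM sum, while the highest feature of the other 35 libraries took at most 1.99%. The layer labels were checked with defining markers: the endoderm factor sox17a.L was at 336 and 532 TPM in FG_endo and 1064 and 1097 TPM in HG_endo, against 1.5 and 0 TPM in FG_meso and 8.63 and 3.05 TPM in HG_meso. The mesoderm pieces also held markers of outer tissue. The epidermal lectin itln1.L was at 5999 and 7857 TPM in FG_meso and 5152 and 6874 TPM in HG_meso but at 0 and 9.26 TPM in FG_endo. The cement gland gene agr2.L, which marks the mucus gland at the front of the head, was at 2196 and 1063 TPM in FG_meso and 4.71 and 10.8 TPM in FG_endo. A member was thus chosen against mesoderm together with ectoderm in the pieces labelled mesoderm. FG_endo held a myeloid marker too, with mpo.L at 54.1 and 19.65 TPM, against 118 and 104 TPM in FG_meso. In HG_endo mpo.L was at 0 and 0.58 TPM. The copy mpo.S, also highest in FG_meso, was at 132 and 69.6 TPM in FG_endo and 0 and 0.27 TPM in HG_endo. The summed blood and myeloid list, which includes mpo, differed less between the endoderm groups. It was 423 to 522 TPM in FG_endo, 383 to 408 TPM in HG_endo and 1020 to 1168 TPM in FG_meso. The summed heart and lateral plate list was 436 to 940 TPM in FG_endo and 452 to 541 TPM in FG_meso. In HG_endo this sum was 827 to 904 TPM. The heart and lateral plate list shares gata4, gata5 and gata6 with the general endoderm list used below, so its sum does not mark heart tissue alone. The part of these tissues in the choice of members was not tested.

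The layer values chose the members, so they are given as a description without a test. Among the regulators of transcription, tbx1.S, a T-box factor of the pharynx, had 23.1 and 54.8 TPM in the 2 FG_endo libraries, 8.73 and 9.14 TPM in FG_meso, 3.79 and 1.17 TPM in HG_endo and 0.40 and 0.41 TPM in HG_meso. The gene ripply3.S, a corepressor that acts on Tbx1 in the mouse, had 141 and 177 TPM in FG_endo, 34.6 and 26.4 TPM in FG_meso, 18.9 and 10.1 TPM in HG_endo and 19.1 and 7.37 TPM in HG_meso. The gene id4.L, an inhibitor of basic helix-loop-helix factors, had 61.1 and 176 TPM in FG_endo, 13.9 and 18.1 TPM in FG_meso, 20.8 and 14.3 TPM in HG_endo and 6.84 and 6.57 TPM in HG_meso. All 3 were listed above 0 in every layer library, with FG_endo above the rest, but tbx1.S was under 1 TPM in HG_meso. Of the surface proteins, igsf3.L, an immunoglobulin superfamily membrane protein, had 154 and 414 TPM in FG_endo and 13.9 and 12.4 TPM in HG_endo. It was at 0 and 0.22 TPM in FG_meso and listed at 0 in both HG_meso libraries. The others were lower: cdh2.S, the N-cadherin adhesion molecule, ranged from 21.9 to 46.2 TPM in FG_endo, and shisa2.S, which holds Frizzled and FGF receptors in the endoplasmic reticulum in Xenopus, from 9.31 to 15.2 TPM. The FGF receptor-like gene fgfrl1.S, whose product lacks a kinase domain, was at 1.78 and 24.5 TPM in the FG_endo libraries, and was not a member without library 2.

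The transporter genes were low in both mesoderm groups. The amino acid transporter gene slc6a14.2.L had the highest level of all members, 241 and 529 TPM in FG_endo, against 99.8 and 69.8 TPM in HG_endo, 3.74 and 2.25 TPM in FG_meso and 1.29 and 0.24 TPM in HG_meso. The sodium-glucose cotransporter gene slc5a1.2.L had 114 and 63.5 TPM in FG_endo, 4.36 and 4.68 TPM in HG_endo, 0.37 and 0.36 TPM in FG_meso and 0.16 and 0.48 TPM in HG_meso. In both, hindgut endoderm stood above either mesoderm group. The cation channel gene tmem63b.L was lower, from 11.9 to 18.0 TPM in FG_endo. Of the secreted proteins, cfd.L, the complement factor D protease of the alternative pathway, had 419 and 248 TPM in FG_endo, 45.5 and 28.4 TPM in FG_meso, 2.75 and 6.27 TPM in HG_endo and 0.37 and 0 TPM in HG_meso. Here the foregut mesoderm pieces came second. The gene apoh.L, a plasma glycoprotein of the liver, had 102 and 32.5 TPM in FG_endo and 19.2 and 3.36 TPM in HG_endo, and was listed at 0 in all 4 mesoderm libraries.

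Of the remaining members, gngt2.1.S, a G protein gamma subunit of the transducin type, had 107 and 342 TPM in FG_endo, 12.9 and 41.7 TPM in FG_meso, 0.58 and 12.8 TPM in HG_endo and was listed at 0 in HG_meso. The gene cryba2.S, named for a beta-crystallin of the lens, had 113 and 164 TPM in FG_endo, 35.4 and 29.2 TPM in HG_endo, 2.97 and 1.57 TPM in FG_meso and 0.51 and 0 TPM in HG_meso. The model Xetrov90011359m.L had 269.6 and 95.9 TPM in FG_endo, 28.8 and 20.9 TPM in HG_endo, 11.1 and 6.19 TPM in FG_meso and 11.7 and 7.38 TPM in HG_meso. Hindgut endoderm came second for cryba2.S and this model, and foregut mesoderm for gngt2.1.S. The gene tprg1.S was at 16.2 and 7.49 TPM in FG_endo. Both FG_endo libraries lay above all 6 other layer libraries for 16 of the 17 members. The exception, Xetrov90016023m.1, was at 47.2 and 0 TPM in FG_endo, so that 1 library alone made it a member.

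**Figure D1:**
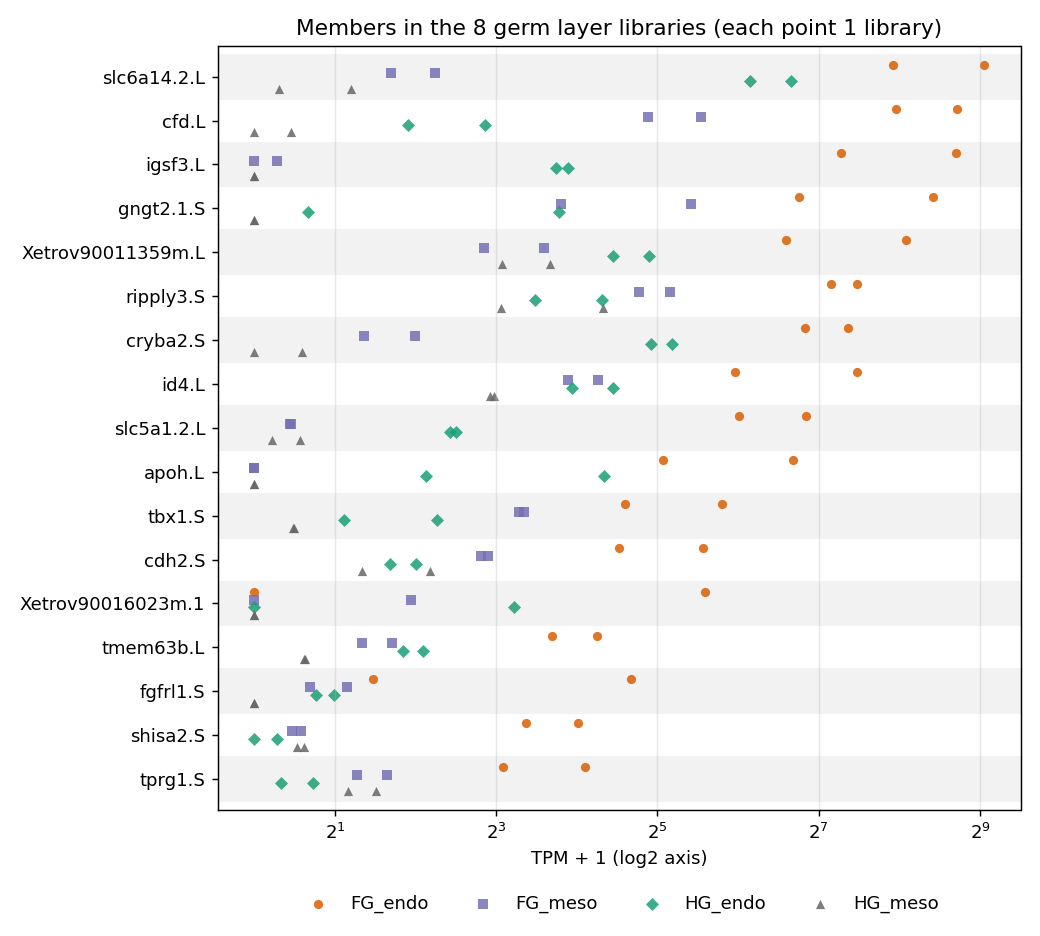
TPM + 1 on a log2 axis for the 17 members in the 8 germ layer libraries, each point 1 library. FG_endo points lie to the right of all other layers for every member except Xetrov90016023m.1, whose FG_endo libraries were at 47.2 and 0 TPM.

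The thresholds were close for some. The smallest ratios inside the 4-fold limit were 4.02 for tbx1.S, 4.06 for tmem63b.L and 4.19 for cryba2.S, and the largest outside it were 3.97 for fgfrl1.L, 3.87 for slc9a3r1.S and 3.72 for tdrp.S. At the 10 TPM limit, tprg1.S (11.8 TPM), shisa2.S (12.2 TPM) and fgfrl1.S (13.1 TPM) were just inside, and onecut2.L (9.18 TPM), cd22.1 (9.17 TPM) and slc13a5.L (8.12 TPM) just outside. Leaving out FG_endo library 1 gave 24 members, 13 of them shared with the 17, and leaving out FG_endo library 2 gave 14, with 8 shared. Of the 17 members, 11 had the other copy of the gene in the table, and none of these other copies was a member. The other copies tbx1.L, ripply3.L, cdh2.L and fgfrl1.L passed at a 3-fold limit. In FG_endo tbx1.L was at 100.3 ± 54.4 TPM (SD, n = 2) and ripply3.L at 219.6 ± 20.3 TPM, with means above those of tbx1.S and ripply3.S. In contrast igsf3.S was at 0.76 ± 1.07 TPM and tprg1.L at 0.99 ± 0.32 TPM in FG_endo, and the tmem63b.S means of the 4 layer groups ran from 21.1 TPM in HG_meso to 25.2 TPM in HG_endo. The copy id4.S did not share the pattern of id4.L, at 33.2 and 85.3 TPM in FG_endo and 108 and 80.7 TPM in HG_endo.

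How much of the layer level was seen in whole foregut pieces differed widely between members. In FG_DMSO explants the group mean ran from 2.44% of the FG_endo mean for apoh.L to 148% for tbx1.S, with a median of 36.3%. For 25 features of a general endoderm list at 10 TPM or more in FG_endo the median was 45.6%. The 4 members tbx1.S, cdh2.S, fgfrl1.S and tprg1.S were above their FG_endo mean in FG_DMSO, and 7 members were under 20% of it. For tbx1.S the FG_DMSO libraries had 69.5, 38.5 and 64.6 TPM, and for apoh.L they had 3.03, 1.45 and 0.43 TPM. In unheated transgenic foregut pieces (FG_noHS) the order was not the same: apoh.L was at 14.2 and 28.2 TPM, 12.9 times its FG_DMSO mean, and gngt2.1.S at 23.2 and 12.1 TPM, 0.143 times its FG_DMSO mean. The sets differ in the transgene and in what the embryos were given, and were not tested against each other.

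**Figure D2:**
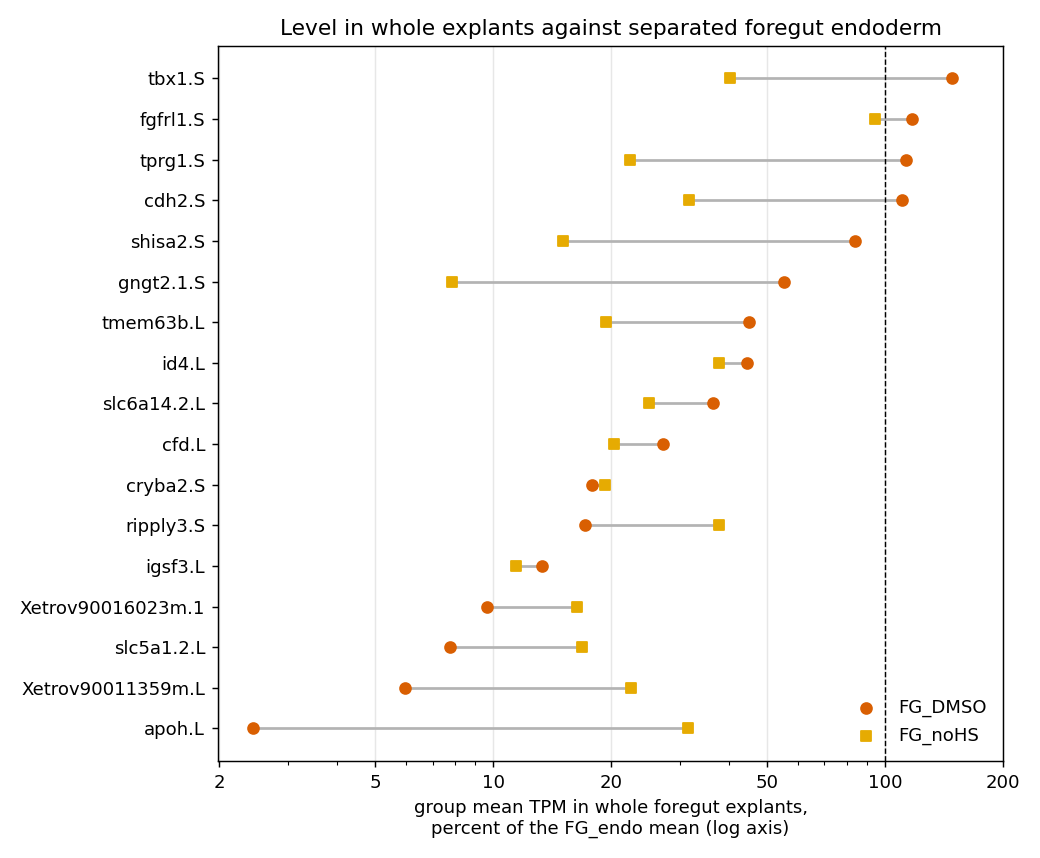
Group mean TPM of each member in vehicle foregut explants (FG_DMSO, circles) and unheated transgenic foregut pieces (FG_noHS, squares) as percent of its FG_endo mean, on a log axis. The dashed line marks 100%, and in FG_DMSO only tbx1.S, fgfrl1.S, tprg1.S and cdh2.S lie above it.

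Whether the members were also lower in hindgut than in foregut pieces was tested in libraries that had no part in choosing them. Log2(TPM + 1) was fitted with limma, one mean per group, over the 29 libraries of 11 groups that are not layers, and a gene was called at a Benjamini-Hochberg adjusted p under 0.05 over the 28108 features tested. All 17 members passed the filter on low values, which asked for 1 TPM in 2 libraries. In vehicle explants 13 of 17 members (76.5%) were called lower in HG_DMSO than in FG_DMSO and 0 higher, while 6.65% of all features tested were called lower and 2.88% higher. The 0 higher calls came from limma, with 0 also under every alternative run, and 16 members had an unadjusted p under 0.05, in either direction, as did 21.4% of all features. The median log2 difference of the members was -2.48 and that of all features -0.12. The 3 FG_DMSO libraries lay above all 3 HG_DMSO libraries for 15 members, which held for 17.9% of all features. The summed level of the general endoderm list did not separate the groups, at 3998 to 4359 TPM in FG_DMSO and 3757 to 4990 TPM in HG_DMSO. In separated endoderm the same sum was 4678 to 8601 TPM in FG_endo and 13900 to 14925 TPM in HG_endo. Similar sums in whole pieces therefore do not show similar shares of endoderm.

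The largest regional difference was that of gngt2.1.S, with 176, 96.7 and 98.7 TPM in FG_DMSO and 0, 1.65 and 3.66 TPM in HG_DMSO, a log2 difference of -5.70 (SE 0.51, adjusted p = 5.25e-08) by limma. The copy gngt2.1.L was also called, with a log2 difference of -1.10 (SE 0.34, adjusted p = 0.0428) by limma. For tbx1.S the values were 69.5, 38.5 and 64.6 TPM in FG_DMSO and 0.53, 0.31 and 0.14 TPM in HG_DMSO, a limma log2 difference of -5.43 (SE 0.37, adjusted p = 7.33e-10). Both copies of this pharyngeal regulator were near 1 TPM or less in hindgut pieces, tbx1.L at 84.1 ± 33.5 TPM (SD, n = 3) in FG_DMSO and 1.08 ± 0.58 TPM in HG_DMSO with a limma log2 difference of -5.30 (SE 0.37, adjusted p = 1.17e-09). The complement gene cfd.L had 123, 63.7 and 85.2 TPM in FG_DMSO and 0, 1.35 and 4.74 TPM in HG_DMSO, with a limma log2 difference of -5.22 (SE 0.46, adjusted p = 3.76e-08). The transporter gene slc6a14.2.L had 152, 149 and 117 TPM in FG_DMSO and 5.26, 9.09 and 6.24 TPM in HG_DMSO, a limma log2 difference of -4.18 (SE 0.30, adjusted p = 2.26e-09). The libraries of the regions did not overlap for these genes.

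Among surface proteins, fgfrl1.S had 22.7, 12.2 and 11.2 TPM in FG_DMSO and 0.24, 0 and 0.37 TPM in HG_DMSO, with a limma log2 difference of -3.71 (SE 0.35, adjusted p = 9.25e-08). Its copy fgfrl1.L showed the same direction, 41.1 ± 14.2 TPM against 0.74 ± 0.50 TPM (SD, n = 3), with a limma log2 difference of -4.58 (SE 0.34, adjusted p = 2.62e-09). The gene igsf3.L had 68.4, 19.5 and 25.3 TPM in FG_DMSO and 0.98, 5.15 and 2.48 TPM in HG_DMSO, a limma log2 difference of -3.26 (SE 0.67, adjusted p = 0.00214). Its FG_DMSO library 1 was well above the other 2, and without the number 1 libraries of the inhibitor groups the adjusted p from limma was 0.106. The copy igsf3.S was near the bottom of the scale in both regions, at 1.11 ± 0.51 TPM and 0.46 ± 0.52 TPM, and was not called. The call of slc5a1.2.L was lost when only these 6 libraries were fitted (limma adjusted p = 0.0752). It was among the other 7 called members, which were cryba2.S, id4.L, slc5a1.2.L, cdh2.S, tmem63b.L, shisa2.S and tprg1.S, with log2 differences from -3.24 (shisa2.S) to -1.50 (cryba2.S). For tmem63b.L the other copy was not called, at 26.1 ± 3.97 TPM in FG_DMSO and 25.5 ± 5.45 TPM in HG_DMSO, and with the copies summed tmem63b was not called (limma adjusted p = 0.357).

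For 3 of the members not called the regional test did not pass although their mean was higher in foregut. The gene ripply3.S had 22.6, 13.0 and 46.0 TPM in FG_DMSO and 6.04, 7.56 and 8.85 TPM in HG_DMSO, a log2 difference of -1.57 (95% interval -3.06 to -0.08, limma adjusted p = 0.203). Its copy ripply3.L was called lower in HG_DMSO, with a limma log2 difference of -1.80 (SE 0.52, adjusted p = 0.0288). The model Xetrov90011359m.L had 10.3, 4.12 and 18.1 TPM in FG_DMSO and 0.63, 1.78 and 4.94 TPM in HG_DMSO, so that the groups overlapped (limma adjusted p = 0.165). The gene apoh.L was listed at 0 in all 3 HG_DMSO libraries but was also low in FG_DMSO, and had a limma adjusted p of 0.0713. It was called lower in HG_DMSO with a pseudocount of 0.1 (limma adjusted p = 0.00123) and without FG_DMSO library 3 (limma adjusted p = 0.0296). The model Xetrov90016023m.1 showed no direction, with 0, 3.98 and 2.86 TPM in FG_DMSO and 3.38, 7.06 and 0 TPM in HG_DMSO.

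In unheated transgenic embryos, with 2 libraries a group, 9 of 17 members (52.9%) were called lower in HG_noHS than in FG_noHS and 0 higher by limma, against 0.936% lower and 0.772% higher of all features. An unadjusted p under 0.05 was found for 14 members and 8.63% of all features, and the median log2 difference was -2.15. The FG_noHS libraries lay above both HG_noHS libraries for 15 members and for 20.4% of all features. The count was 4 without FG_noHS library 2, 4 without the HG_noHS library numbered 12, and 3 when only these 4 libraries were fitted. It was 8 without the libraries headed 23 and 25, where the lone HG_noHS library is assumed to vary like the other groups. The 6 members with the largest differences among those called were cfd.L, tbx1.S, slc5a1.2.L, igsf3.L, slc6a14.2.L and apoh.L. The gene cfd.L had 66.6 and 69.3 TPM in FG_noHS and 1.77 and 2.70 TPM in HG_noHS, a limma log2 difference of -4.43 (SE 0.56, adjusted p = 4.16e-05). The gene tbx1.S had 16.2 and 15.04 TPM against 0.11 and 0.57 TPM, a limma log2 difference of -3.65 (SE 0.45, adjusted p = 3.12e-05), and tbx1.L was called as well, with -3.60 (SE 0.45, adjusted p = 3.78e-05). The transporter genes were lower in hindgut here too, with 11.1 and 18.9 TPM against 0.05 and 0.71 TPM for slc5a1.2.L, a limma log2 difference of -3.53 (SE 0.57, adjusted p = 7.20e-04).

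For slc6a14.2.L the values were 106 and 86.4 TPM in FG_noHS and 11.8 and 10.3 TPM in HG_noHS, a limma log2 difference of -3.01 (SE 0.37, adjusted p = 3.24e-05). The plasma glycoprotein gene apoh.L, which was not called in vehicle explants with a pseudocount of 1, had 14.2 and 28.2 TPM against 1.37 and 2.89 TPM and a limma log2 difference of -2.79 (SE 0.53, adjusted p = 0.00417). The gene igsf3.L had 10.03 and 55.1 TPM against 0.21 and 4.77 TPM, a wide spread in both groups, and a limma log2 difference of -3.23 (SE 0.82, adjusted p = 0.0445). The other called members were fgfrl1.S, cryba2.S and tmem63b.L. Of 13 alternatives the call was lost under 8 for tmem63b.L, 7 for cryba2.S, 6 each for fgfrl1.S and igsf3.L, 4 for apoh.L and 1 for slc5a1.2.L. The difference of gngt2.1.S, the largest in vehicle explants, was not called here, with 23.2 and 12.1 TPM against 3.59 and 1.52 TPM (limma adjusted p = 0.0559). The crystallin gene cryba2.S was called, with 20.6 and 32.8 TPM against 6.39 and 16.1 TPM. The regulators id4.L, at 36.8 and 52.7 TPM against 12.4 and 17.2 TPM, and ripply3.S, at 90.6 and 29.4 TPM against 18.8 and 3.00 TPM, were not. Nor was Xetrov90011359m.L, at 47.0 and 35.2 TPM against 9.96 and 6.99 TPM. In all 4 the foregut libraries lay above the hindgut libraries. The genes shisa2.S and tprg1.S, between 6.71 and 16.7 TPM in FG_DMSO, were low in both transgenic regions, at 1.31 and 2.39 TPM and 3.28 and 2.00 TPM in FG_noHS.

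**Figure D3:**
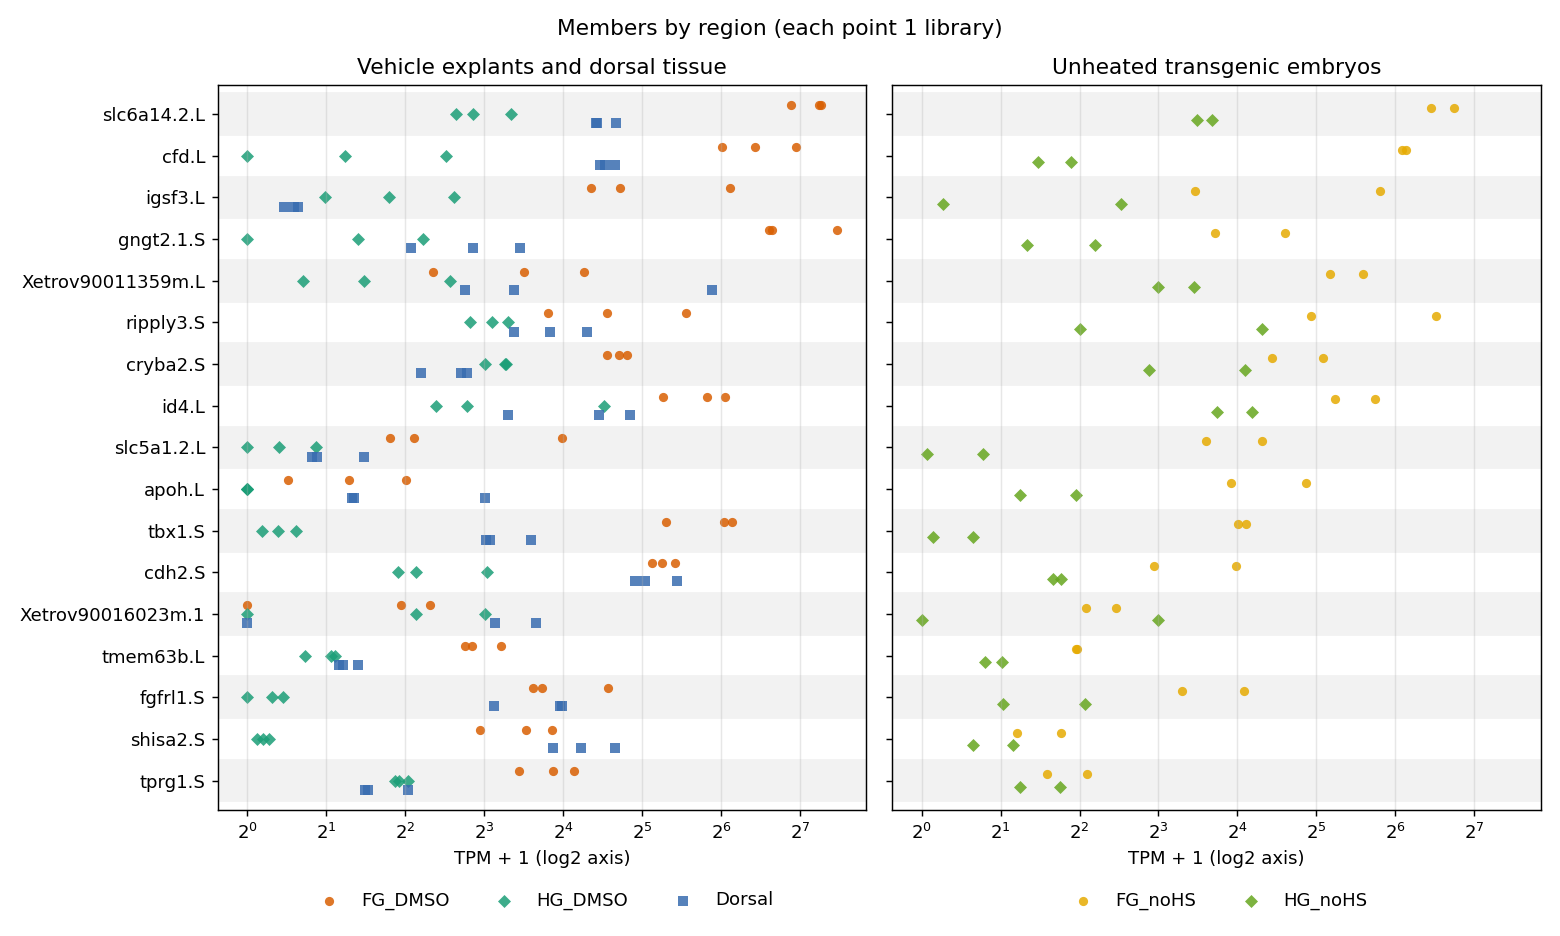
TPM + 1 on a log2 axis for each member, each point 1 library: left, vehicle foregut, vehicle hindgut and dorsal explants; right, unheated transgenic foregut and hindgut pieces. Foregut points lie to the right of hindgut points without overlap for 15 members in the left panel and 15 in the right.

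Lists of other tissues also differed between the regions. Of 35 neural plate features 20 were called lower in HG_DMSO and 3 higher, and of 28 blood and myeloid features 15 lower and 0 higher by limma. Of 13 cement gland features tested 11 were called lower in HG_DMSO, their summed level being 6501 to 10164 TPM in FG_DMSO and 144 to 162 TPM in HG_DMSO, with no defining marker at 0 in either group. In FG_endo the same sum was 25.3 to 54 TPM, with ag1.L and ag1.S listed at 0 in library 1. The part of these tissues in the regional differences of the members was not tested. Of 49 features of a foregut patterning list, 24 were called lower in HG_DMSO and 2 higher. Their median log2 difference was -1.40, and 1 of the 49, tbx1.S, is a member. Some of its genes are also in other lists, among them gata4 (general endoderm) and sox2 (neural plate). Of 29 features of a liver and plasma protein list, apoh.L among them, 3 were called lower and 0 higher by limma. In separated endoderm neither sum set the regions apart. The foregut patterning sum was 1612 to 3216 TPM in FG_endo and 2447 to 2969 TPM in HG_endo. The liver and plasma protein sum was 2044 to 4011 TPM in FG_endo and 3529 to 3906 TPM in HG_endo.

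The question for the agents was whether raised Wnt or reduced BMP signalling moved these genes. FG_BIO, FG_DMH1, HG_DMSO and Dorsal were all compared with the same 3 FG_DMSO libraries. Known Wnt targets were called higher under BIO. The feedback inhibitor axin2.L had 5.24, 6.37 and 9.56 TPM in FG_DMSO and 86.7, 65.1 and 62.8 TPM in FG_BIO, a limma log2 difference of 3.19 (SE 0.29, adjusted p = 1.73e-07), and the hindgut factor cdx2.L rose from 8.43 ± 4.88 to 90.4 ± 33.8 TPM (SD, n = 3; limma log2 difference 3.36, SE 0.30, adjusted p = 1.63e-07). The BMP targets szl.L and bambi.L were called lower under BIO as well: szl.L was at 257 ± 146 TPM in FG_DMSO and 50.2 ± 36.9 TPM in FG_BIO (SD, n = 3; limma log2 difference -2.63, SE 0.75, adjusted p = 0.0283), and bambi.L had a limma log2 difference of -0.84 (SE 0.23, adjusted p = 0.0239). The bambi.L call was lost under 5 of 16 alternatives (limma adjusted p up to 0.139). That of szl.L was also lost under some, for example without FG_BIO library 1 (limma adjusted p = 0.202). Of 42 features of a BMP response list, 1 of them the member id4.L, 19 were called lower and 4 higher. Among the other checks, the Wnt target sp5.L had 0.85, 0.49 and 1.80 TPM in FG_DMSO and 133, 102 and 100 TPM in FG_BIO. It was called higher in FG_DMH1 too, at 8.15, 2.92 and 19.4 TPM. That FG_DMH1 call was lost with only the groups compared (limma adjusted p = 0.254) and without the number 1 libraries of the inhibitor groups (limma adjusted p = 0.0735). The foregut factor hhex.L was called lower in FG_BIO (limma log2 difference -1.34), a call lost under 8 of 16 alternatives. Of the 17 members 1 (5.88%), cryba2.S, was called lower in FG_BIO and 0 were called higher by limma, against 6.17% lower and 2.93% higher of all features, so the share was near the background. An unadjusted p under 0.05 was found for 5 members (29.4%) and 21.8% of all features, and 5 members had all FG_BIO libraries below all FG_DMSO libraries, which held for 18.3% of all features. The median log2 difference of the members was -0.27, beside -0.09 for all features.

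The gene cryba2.S had 22.4, 25.1 and 26.9 TPM in FG_DMSO and 9.90, 11.7 and 17.7 TPM in FG_BIO, a log2 difference of -0.91 (SE 0.27, adjusted p = 0.0339) by limma. The call was lost under 7 of 16 alternatives, with adjusted p up to 0.209. The other 4 members that did not overlap were tbx1.S, cdh2.S, id4.L and tprg1.S. For cdh2.S the values were 41.9, 33.98 and 37.2 TPM and 26.3, 16.8 and 12.3 TPM, with a limma log2 difference of -1.05 (SE 0.38, adjusted p = 0.0882). For id4.L they were 65.0, 37.5 and 55.5 TPM and 37.5, 19.6 and 10.98 TPM, with a limma log2 difference of -1.31 (SE 0.52, adjusted p = 0.133). For tprg1.S they were 16.7, 9.84 and 13.6 TPM and 7.75, 5.89 and 8.03 TPM, with a limma log2 difference of -0.79 (SE 0.26, adjusted p = 0.0643). Each FG_BIO library thus lay under every vehicle library for these genes. With the replicate number as a block, limma called these 3 as well, at adjusted p of 0.0219 (cdh2.S), 0.0344 (id4.L) and 0.0425 (tprg1.S), which made 4 of 17 (23.5%), while 16.7% of all features were called with the block. The copy id4.S was called without the block, 52.1 ± 8.31 TPM in FG_DMSO and 12.2 ± 4.72 TPM in FG_BIO (SD, n = 3; limma log2 difference -2.06, SE 0.37, adjusted p = 8.74e-04). For tbx1.S the values were 69.5, 38.5 and 64.6 TPM and 31.8, 25.5 and 27.8 TPM, with a limma log2 difference of -0.96 (SE 0.37, adjusted p = 0.112).

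For the most abundant members no difference passed the test. The gene slc6a14.2.L had 126, 94.1 and 98.5 TPM in FG_BIO, with a log2 difference of -0.40 and a 95% interval of -1.03 to 0.23 that leaves room for a change of either sign. The gene cfd.L had 98.4, 60.4 and 64.2 TPM (log2 difference -0.27, 95% interval -1.22 to 0.69). The gene gngt2.1.S had 185, 81.7 and 106 TPM (log2 difference -0.02, 95% interval -1.09 to 1.04). The same 3 genes differed by -4.18, -5.22 and -5.70 between the hindgut and foregut vehicle explants, a comparison that shares the FG_DMSO libraries. The membrane protein gene igsf3.L was at 39.0, 28.1 and 41.8 TPM in FG_BIO, between its highest and lowest vehicle libraries. The corepressor gene ripply3.S was at 25.3, 17.5 and 35.9 TPM and overlapped FG_DMSO throughout. The model Xetrov90011359m.L was at 7.08, 7.22 and 12.5 TPM, also within the vehicle range. The plasma protein gene apoh.L was at 3.2, 3.57 and 1.91 TPM and overlapped its low vehicle values. The glucose transporter gene slc5a1.2.L was at 13.6, 6.79 and 9.67 TPM, and its comparison turned on a single vehicle library. Without FG_DMSO library 1, in which slc5a1.2.L was 14.8 TPM against 2.49 and 3.31 TPM in the others, slc5a1.2.L was called higher in FG_BIO (limma log2 difference 1.46, adjusted p = 0.0296).

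Lists of other cells moved in the same comparison. Of 13 cement gland features 7 were called lower in FG_BIO, their summed level being 6501 to 10164 TPM in FG_DMSO and 372 to 1540 TPM in FG_BIO with no defining marker at 0, and of 28 blood and myeloid features 19 were called lower and 1 higher. Of the foregut patterning list 13 of 49 were called lower and 0 higher by limma. The part of these tissues in the members' values was not tested, and the summed general endoderm list was at 3305 to 3817 TPM in FG_BIO against 3998 to 4359 TPM in FG_DMSO.

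Known BMP targets fell under DMH1: bambi.L, a pseudoreceptor that blocks BMP signalling, from 223 ± 49.3 to 57.9 ± 5.99 TPM (SD, n = 3; limma log2 difference -1.91, SE 0.23, adjusted p = 5.52e-05) and szl.L, a secreted feedback inhibitor, from 257 ± 146 to 15.6 ± 10.8 TPM (-4.07, SE 0.75, adjusted p = 0.00539). The szl.L call was lost with only the groups compared (limma adjusted p = 0.0875) and without FG_DMH1 library 3 (limma adjusted p = 0.0583). Of the members 0 of 17 were called by limma in FG_DMH1, against 0.993% of all features, and 3 had an unadjusted p under 0.05, as did 8.94% of all features. The median log2 difference was 0.32, beside 0.00211 for all features. The 3 were shisa2.S, slc5a1.2.L and apoh.L. The gene shisa2.S had 10.5, 6.71 and 13.5 TPM in FG_DMSO and 6.09, 2.16 and 5.09 TPM in FG_DMH1, every treated library below every vehicle library, with a limma log2 difference of -1.08 (SE 0.29, adjusted p = 0.0872). With the replicate block its adjusted p from limma was 0.0320, which made 1 call of 17, against 2.57% of all features. The gene slc5a1.2.L had 16.2, 12.7 and 21.4 TPM (limma log2 difference 1.49, SE 0.46, adjusted p = 0.175) and was called higher without FG_DMSO library 1 (adjusted p = 0.00744). The gene apoh.L had 3.68, 3.87 and 5.19 TPM (limma log2 difference 1.11, SE 0.44, adjusted p = 0.373).

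Libraries did not overlap for 3 members in the higher direction (6.79% of all features) and 2 in the lower (7.58% of all features), apoh.L and shisa2.S among them. The gene slc6a14.2.L had 172, 181 and 205 TPM, above all FG_DMSO libraries, with a log2 difference of 0.41 (95% interval -0.22 to 1.05). The gene tbx1.S had 85.9, 70.9 and 109 TPM, also above all FG_DMSO libraries (log2 difference 0.64, 95% interval -0.12 to 1.40). The gene cryba2.S had 19.0, 20.2 and 13.6 TPM, below all FG_DMSO libraries (log2 difference -0.49, 95% interval -1.04 to 0.06). None of these 3 passed the test. The complement gene cfd.L was at 130.4, 103 and 131 TPM in FG_DMH1, overlapping vehicle. For igsf3.L the FG_DMH1 values were 48.7, 25.99 and 21.9 TPM, with library 1 the highest as in vehicle. The same order held for gngt2.1.S, at 159, 108 and 104 TPM. The regulators id4.L, at 63.2, 35.2 and 38.2 TPM, and ripply3.S, at 30.4, 41.0 and 53.3 TPM, overlapped vehicle. So did Xetrov90011359m.L, at 13.9, 6.18 and 16.4 TPM. Of 35 neural plate features 6 were called higher in FG_DMH1 and 0 lower by limma. Of 28 blood and myeloid features 9 were called lower and 0 higher, and of 13 cement gland features 0 were called. The summed blood and myeloid level was 1493 to 1756 TPM in FG_DMSO and 686 to 834 TPM in FG_DMH1, with no defining marker at 0. The part of these tissues in the members' values was not tested.

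Compared directly, BIO and DMH1 differed for 3 of 17 members (17.6%), all lower in FG_BIO, against 5.65% lower and 2.05% higher of all features, and 6 members (35.3%) had an unadjusted p under 0.05, as did 20% of all features. All FG_BIO libraries lay below all FG_DMH1 libraries for 7 members and for 18.2% of all features, and above them for 1 member and 8.73% of all features. The called members were tbx1.S (limma log2 difference -1.59, SE 0.37, adjusted p = 0.00823), cdh2.S (-1.36, SE 0.38, adjusted p = 0.0271) and tprg1.S (-0.98, SE 0.26, adjusted p = 0.0218). For all 3 the FG_DMSO mean lay between the FG_BIO and FG_DMH1 means. The copy tbx1.L was called in the same direction, 54.4 ± 16.6 TPM in FG_BIO and 145 ± 42.4 TPM in FG_DMH1 (SD, n = 3; limma log2 difference -1.40, SE 0.37, adjusted p = 0.0203), while cdh2.L and tprg1.L were not called. With the block tmem63b.L was called too (limma adjusted p = 0.0211), which made 4 (23.5%), while 14.2% of all features were called with the block. Without FG_DMH1 library 3 the count was 0, and without FG_BIO library 2 it was 1. Lists of other tissues differed in the same comparison. Of 35 neural plate features 14 were called lower in FG_BIO and 2 higher, their summed level being 286 to 786 TPM in FG_BIO and 848 to 1213 TPM in FG_DMH1, with no defining marker at 0. Of 13 cement gland features 8 were called lower and 0 higher by limma, and of 28 blood and myeloid features 13 lower and 2 higher. The summed cement gland level was 372 to 1540 TPM in FG_BIO and 1913 to 6873 TPM in FG_DMH1, with no defining marker at 0. The summed blood and myeloid level was 344 to 479 TPM in FG_BIO and 686 to 834 TPM in FG_DMH1, with mpo.L listed at 0 in FG_BIO library 2. N-cadherin, the product of cdh2, is also made in the neural plate, and the part of these tissues in the members' differences was not tested.

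**Figure D4:**
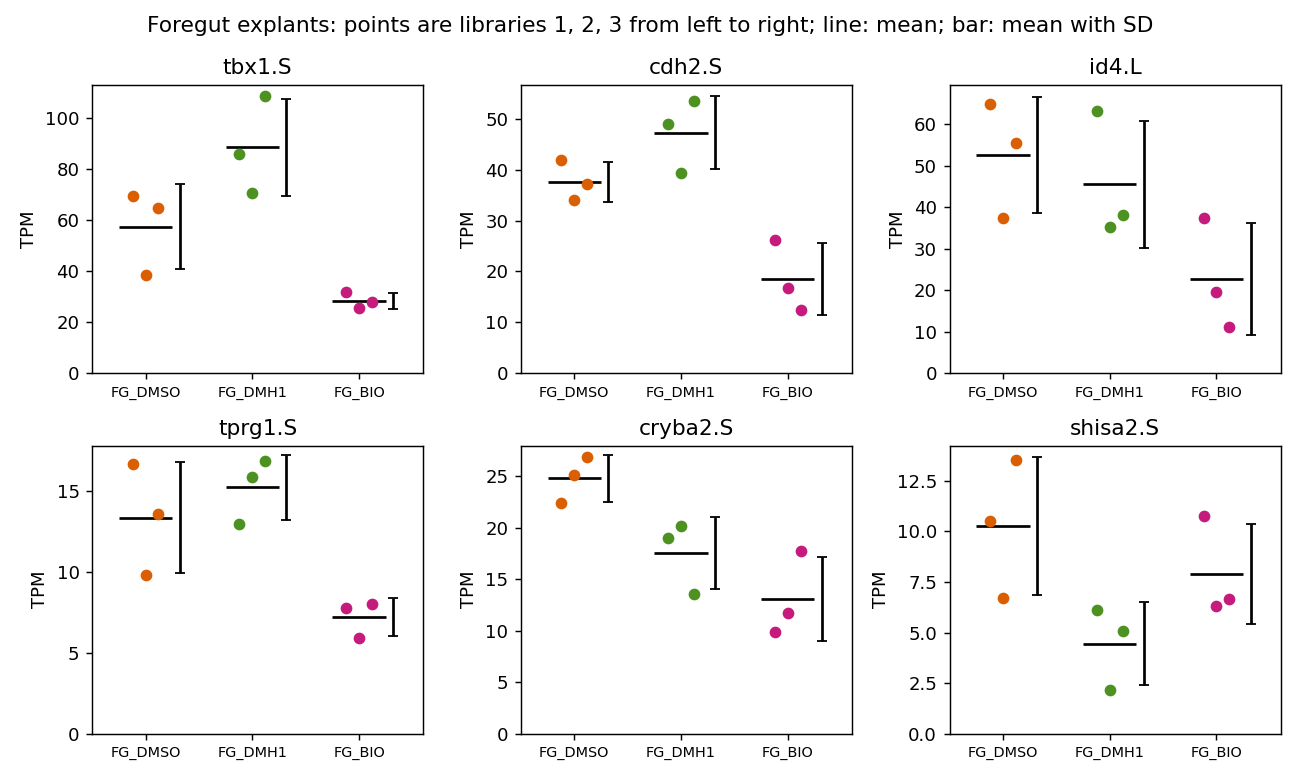
TPM in the 9 foregut explant libraries for the 6 members whose libraries under BIO or DMH1 all lay below vehicle, each point 1 library (numbers 1, 2 and 3 from left to right), with a line at the mean and a bar of the SD. FG_BIO points lie below all FG_DMSO points for tbx1.S, cdh2.S, id4.L, tprg1.S and cryba2.S, and FG_DMH1 points lie below FG_DMSO points for shisa2.S and cryba2.S.

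In hindgut explants the members were low and neither agent gave a call of a member. Of 35 Wnt response features 1, axin2.S, was called higher in HG_BIO and 0 lower by limma. The axin2.S call was lost under 8 of 16 alternatives. Under BIO 0 of 17 members were called by limma, against 0.231% of all features, with 1 member (8.48% of all features) at an unadjusted p under 0.05 and a median log2 difference of -0.09. The member with the unadjusted p under 0.05 was cryba2.S, at 7.07, 8.69 and 8.62 TPM in HG_DMSO and 5.29, 4.92 and 5.08 TPM in HG_BIO. It was also the only member with every HG_BIO library below every HG_DMSO library, which held for 5.38% of all features. The transporter gene slc6a14.2.L was at 5.36, 4.38 and 4.03 TPM in HG_BIO, overlapping vehicle. The regulator id4.L was at 7.54, 6.32 and 2.26 TPM. The corepressor gene ripply3.S was at 6.34, 11.9 and 9.56 TPM. These 3 were the members above 5 TPM in at least 1 HG_BIO library beside cryba2.S, tprg1.S and Xetrov90016023m.1. The complement gene cfd.L was at 0.27, 0.79 and 1.47 TPM in HG_BIO. For igsf3.L the values were 0.84, 4.70 and 2.63 TPM, in the same order as its HG_DMSO libraries. For gngt2.1.S they were 0.40, 1.74 and 2.52 TPM, again with library 1 the lowest. The model Xetrov90011359m.L was at 0.54, 1.96 and 2.42 TPM, and library 1 was once more the lowest. The genes slc5a1.2.L, at 0.70, 1.18 and 1.25 TPM, and apoh.L, at 0.21, 0 and 0 TPM, were near the bottom of the scale.

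Under DMH1 0 of 17 members were called in hindgut by limma, against 1.37% of all features. Of 42 BMP response features, 1 of them the member id4.L, 15 were called lower and 0 higher. An unadjusted p under 0.05 was found for 5 members (29.4%), slc6a14.2.L, tbx1.S, cdh2.S, fgfrl1.S and shisa2.S, and for 9.84% of all features, and the median log2 difference was 0.48, beside 0.08 for all features. All HG_DMH1 libraries lay above all HG_DMSO libraries for 4 members, ripply3.S, tbx1.S, fgfrl1.S and shisa2.S, and for 9.97% of all features. The gene tbx1.S had 0.53, 0.31 and 0.14 TPM in HG_DMSO and 0.57, 1.42 and 5.44 TPM in HG_DMH1 (limma log2 difference 1.14, SE 0.37, adjusted p = 0.172). The gene ripply3.S had 6.04, 7.56 and 8.85 TPM and 9.36, 20.8 and 32.7 TPM (limma log2 difference 1.23, SE 0.72, adjusted p = 0.647). The gene slc6a14.2.L had 6.91, 12.4 and 20.4 TPM, overlapping HG_DMSO. Other copies were called where the members were not: the level of fgfrl1.L rose from 0.74 ± 0.50 to 11.04 ± 5.54 TPM (SD, n = 3; limma log2 difference 2.69, SE 0.34, adjusted p = 5.76e-05), tbx1.L from 1.08 ± 0.58 to 8.13 ± 4.52 TPM (2.06, SE 0.37, adjusted p = 0.0033) and cdh2.L from 16.6 ± 2.15 to 33.2 ± 5.36 TPM (0.95, SE 0.23, adjusted p = 0.0384). With the copies summed, tbx1 (limma adjusted p = 0.00349) and fgfrl1 (1.57e-04) were called. Without HG_DMH1 library 1, tbx1.S was called on its own (limma adjusted p = 0.0366). The summed somite and muscle list was at 150.3 to 590.4 TPM in HG_DMSO and 605 to 898 TPM in HG_DMH1, with no defining marker at 0, and its part in these values was not tested.

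The other members overlapped HG_DMSO under DMH1. The secreted protein gene cfd.L was at 0.77, 0.94 and 2.04 TPM in HG_DMH1, and apoh.L, listed at 0 in all HG_DMSO libraries, at 0, 0.18 and 0.70 TPM. The glucose transporter gene slc5a1.2.L was at 0.66, 1.61 and 2.03 TPM. Libraries 2 and 3 were above library 1 for each of these 3 genes. The membrane protein gene igsf3.L was at 1.57, 4.70 and 3.30 TPM. The G protein gene gngt2.1.S was at 0.75, 2.42 and 2.33 TPM. The model Xetrov90011359m.L was at 1.02, 5.13 and 4.93 TPM, and here too library 1 was the lowest. The gene cryba2.S was at 5.33, 4.89 and 8.46 TPM and id4.L at 8.22, 12.6 and 3.56 TPM, without that order.

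Whether an agent acted differently in the 2 regions was tested as an interaction, and 0 of 17 members were called by limma for BIO, for DMH1 or for heat, with 1, 1 and 0 members at an unadjusted p under 0.05 and 0.911%, 0.206% and 0.00712% of all features called. Of all features 7.47%, 5.93% and 1.47% had such an unadjusted p. The DMH1 interaction of shisa2.S was 1.72 (SE 0.41, limma adjusted p = 0.117), and it passed with the block (adjusted p = 0.0489), where 0.42% of all features were called. Its log2 difference under DMH1 was -1.08 in foregut and 0.64 in hindgut, where its level was at most 1.07 TPM. The BIO interaction of tprg1.S was 1.12 (SE 0.37, limma adjusted p = 0.268).

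For the heat shock of Dkk1 transgenic embryos, dkk1 was looked at first. The level of dkk1.L was 15.9 and 20.8 TPM in FG_noHS and 14.7 and 16.8 TPM in FG_HSdkk1, and 6.17 and 13.4 TPM in HG_noHS and 8.10 and 7.05 TPM in HG_HSdkk1, so it was not raised in the libraries labelled as heated, and whether the features count transcripts of the transgene is not known. Among Wnt targets, axin2.L was 23.4 and 16.3 TPM in HG_noHS and 13.5 and 5.89 TPM in HG_HSdkk1, and the summed Wnt response list was 1140.3 to 1159 TPM against 619 to 708 TPM. In foregut this sum was 399 to 464 TPM in FG_noHS and 291 to 369 TPM in FG_HSdkk1. Of the 35 features of the list 0 were called by limma in either region. The Wnt response list shares cdx1, cdx2, cdx4 and tbxt with the hindgut list, so the 2 sums are not separate readouts. The summed hindgut list was 1161 to 1171 TPM in HG_noHS and 542 to 743 TPM in HG_HSdkk1. A summed list of heat shock genes was 7920 to 8952 TPM in FG_noHS and 6579 to 8063 TPM in FG_HSdkk1. In hindgut it was 6686 to 8268 TPM in HG_noHS and 5461 to 7509 TPM in HG_HSdkk1. Of the 26 heat shock features tested 0 were called by limma in either region. Of the members 0 of 17 were called by limma in the foregut libraries labelled as heated, where 0.0213% of all features were called, and 1 member and 2.36% of all features had an unadjusted p under 0.05. In the hindgut libraries 0 of 17 were called, where 0.00712% of all features were called, and 4 members (23.5%) and 3.02% of all features had an unadjusted p under 0.05. The median log2 difference of the members was 0.22 in foregut and 0.66 in hindgut, beside 0.00919 and 0.00665 for all features. The 2 libraries labelled as heated lay above both unheated libraries for 6 members in foregut and 6 in hindgut, which held for 11.9% and 12.4% of all features.

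In the hindgut, apoh.L had 1.37 and 2.89 TPM in HG_noHS and 20.4 and 5.86 TPM in HG_HSdkk1, a log2 difference of 2.00 (95% interval 0.89 to 3.11, limma adjusted p = 0.624). The complement gene cfd.L had 1.77 and 2.70 TPM in HG_noHS and 11.9 and 3.06 TPM in HG_HSdkk1. The transporter gene slc5a1.2.L had 0.05 and 0.71 TPM and 4.84 and 0.84 TPM. With tbx1.S, at 0.11 and 0.57 TPM and 3.49 and 1.00 TPM, these 4 were the members with an unadjusted p under 0.05. In each of them the library numbered 14 was well above the library numbered 25. Library 14 was also the higher for slc6a14.2.L, with 11.8 and 10.3 TPM in HG_noHS and 31.2 and 10.5 TPM in HG_HSdkk1. For ripply3.S the values were 18.8 and 3.00 TPM and 51.5 and 3.54 TPM. For Xetrov90011359m.L they were 9.96 and 6.99 TPM and 39.6 and 6.06 TPM. In these last 3 genes library 25 overlapped or lay below the unheated libraries. Of the 17 members 9 had their highest value of the 4 hindgut libraries in number 14 and 3 in number 25. Of the foregut libraries of this set, FG_HSdkk1 library 1 held the highest value of 11 members. All features were not counted in this way, so a shift of a whole library cannot be told from a trait of the members. Some lists of other tissues were higher in HG_HSdkk1 too. The summed cement gland list was 98.2 to 119 TPM in HG_noHS and 213 to 326 TPM in HG_HSdkk1. The blood and myeloid list was 483 to 635 TPM and 659 to 790 TPM, with mpo.L listed at 0 in library 25. By limma 1 of 28 blood and myeloid features was called higher and 0 of 13 cement gland features. The neural plate sums overlapped, and the notochord sum was lower in HG_HSdkk1. The part of these tissues was not tested. The titles number both hindgut groups 1 and 2, and the headers 12 and 14, and 23 and 25, share their first digit. Paired by that digit, a choice made after seeing the data, 11 of 17 members (64.7%) were higher in the library labelled as heated in both pairs and 2 lower in both, against 25% and 21.7% of all features. With these pairs as a block 0 of 17 members were called by limma. Without libraries 23 and 25 the count was also 0. The genes cryba2.S, at 16.5 and 16.9 TPM in HG_HSdkk1, and id4.L, at 17.1 and 21.5 TPM, were not higher in library 14 than in library 25. The genes igsf3.L, at 0.31 and 2.21 TPM, and gngt2.1.S, at 2.38 and 0.26 TPM, were low in both.

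In the foregut the transporter gene slc6a14.2.L had 112 and 84.4 TPM in FG_HSdkk1, overlapping its FG_noHS values. The complement gene cfd.L had 107 and 58.7 TPM, on either side of the unheated pair. For igsf3.L the values were 10.4 and 50.05 TPM, with library 2 above library 1 as in FG_noHS. The G protein gene gngt2.1.S had 23.6 and 16.1 TPM and ripply3.S 90.9 and 24.1 TPM, where library 1 was the higher in both groups. The gene apoh.L had 36.5 and 34.3 TPM, above both FG_noHS libraries, with a log2 difference of 0.79 (95% interval -0.32 to 1.90). The gene slc5a1.2.L had 31.0 and 21.9 TPM, also above both, with a log2 difference of 0.81 (95% interval -0.37 to 1.98). Neither passed the test. The model Xetrov90011359m.L had 105 and 21.5 TPM in FG_HSdkk1, on either side of its unheated values. The genes cryba2.S, at 39.2 and 31.1 TPM, and id4.L, at 50.9 and 71.9 TPM, overlapped FG_noHS, at 20.6 and 32.8 TPM and 36.8 and 52.7 TPM. Paired by library number, id4.L was higher in the library labelled as heated in both pairs, and cryba2.S only in number 1. With these foregut pairs as a block 0 of 17 members were called by limma. The channel gene tmem63b.L, the member with the unadjusted p under 0.05, had 2.93 and 2.89 TPM in FG_noHS and 3.82 and 5.43 TPM in FG_HSdkk1. The summed cement gland list was 1175 to 1521 TPM in FG_noHS and 1744 to 4787 TPM in FG_HSdkk1. The blood and myeloid list was 980 to 1197 TPM and 1519 to 1690 TPM. The neural plate sums overlapped, and the notochord sum was lower in FG_HSdkk1. Of the features of these lists 0 were called by limma, and the part of these tissues was not tested.

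**Figure D5:**
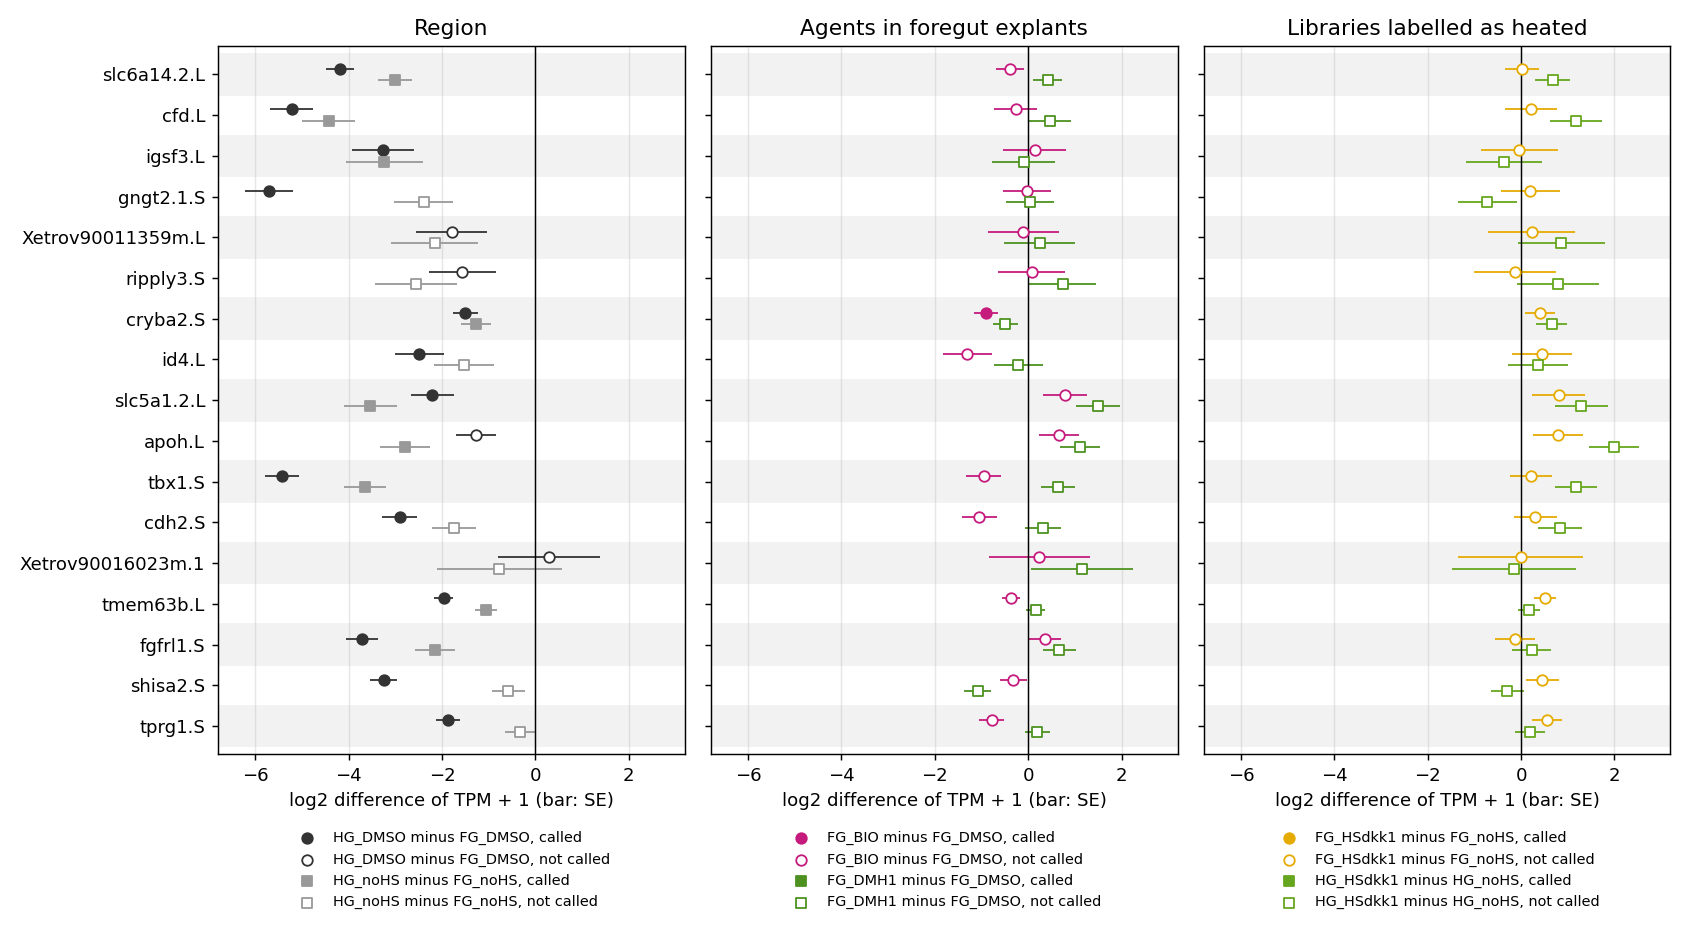
Log2 differences of TPM + 1 with their standard errors for each member, filled where limma called the gene and open where it did not: left, hindgut minus foregut in vehicle and unheated transgenic pieces; middle, BIO and DMH1 against vehicle in foregut; right, libraries labelled as heated against unheated ones. The left panel holds 13 and 9 filled points, the middle panel 1 (cryba2.S under BIO) and the right panel 0.

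Dorsal explants differed from FG_DMSO for many genes: 12.2% of all features were called higher and 25.9% lower. The summed somite and muscle list was 11394 to 11581 TPM in Dorsal and 14.4 to 20.8 TPM in FG_DMSO, and the summed general endoderm list 1470.1 to 1646 TPM in Dorsal. Of the members 10 of 17 (58.8%) were called lower and 1 (5.88%), shisa2.S, higher, with 11 (46.4% of all features) at an unadjusted p under 0.05 in either direction and a median log2 difference of -1.57, beside -0.24 for all features. All Dorsal libraries lay below all FG_DMSO libraries for 10 members (31.9% of all features) and above them for 1 (14.3%). The membrane protein gene igsf3.L had 0.56, 0.38 and 0.50 TPM in Dorsal, a limma log2 difference from FG_DMSO of -4.50 (SE 0.67, adjusted p = 1.68e-05). For gngt2.1.S the values were 3.2, 6.22 and 9.99 TPM, with a limma log2 difference of -4.11 (SE 0.51, adjusted p = 1.69e-06). The transporter gene slc6a14.2.L, at 20.5, 20.3 and 24.4 TPM, stayed well above 1 TPM, with a limma log2 difference of -2.63 (SE 0.30, adjusted p = 5.86e-07). The pharyngeal factor tbx1.S had 11.1, 7.09 and 7.41 TPM and a limma log2 difference of -2.60 (SE 0.37, adjusted p = 8.34e-06). All 4 lay below every FG_DMSO library. Of their copies gngt2.1.L and tbx1.L were called lower and igsf3.S was not called. The signalling gene shisa2.S had 17.7, 24.2 and 13.6 TPM in Dorsal, above every FG_DMSO library (limma log2 difference 0.81, SE 0.29, adjusted p = 0.0314), and its copy shisa2.L was called higher too, at 39.5 ± 8.43 TPM against 5.08 ± 2.01 TPM (SD, n = 3).

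The adhesion gene cdh2.S, which the neural plate and somites also express, was at 42.4, 29.01 and 31.7 TPM in Dorsal, with a log2 difference of -0.14 (95% interval -0.92 to 0.64), and fgfrl1.S was at 14.5, 14.8 and 7.75 TPM. Neither was called, while cdh2.L was called higher in Dorsal (limma log2 difference 0.95, SE 0.23, adjusted p = 0.00235) and fgfrl1.L lower (-1.31, SE 0.34, adjusted p = 0.00378). The complement gene cfd.L was called lower at 21.1, 22.2 and 24.3 TPM in Dorsal, a level above every HG_DMSO library. Also called lower were cryba2.S, at 5.53, 5.86 and 3.58 TPM, and id4.L, at 8.86, 20.9 and 27.8 TPM. The transporter gene slc5a1.2.L, at 0.77, 0.85 and 1.79 TPM, the channel gene tmem63b.L and tprg1.S completed the 10. The call was lost under 5 of 15 alternatives for shisa2.S, 4 for id4.L, 3 for slc5a1.2.L and 1 each for cfd.L and tmem63b.L. The corepressor gene ripply3.S, at 18.8, 13.3 and 9.36 TPM, and apoh.L, at 7.04, 1.54 and 1.5 TPM, overlapped FG_DMSO and were not called. Nor was Xetrov90011359m.L, at 9.36, 58.2 and 5.77 TPM. The high Xetrov90011359m.L value came from Dorsal library 2. Over the 15 groups, 12 of the 17 members had their highest mean in FG_endo, while tbx1.S, cdh2.S, fgfrl1.S and tprg1.S were highest in FG_DMH1 and shisa2.S in Dorsal. The membership rule had already set FG_endo above the other layer groups. Only the 11 groups that are not layers were free to hold a higher mean, so the count is a description.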

How the data were processed

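Poly(A) RNA of 37 Xenopus laevis libraries in 15 groups was prepared with a stranded TruSeq kit, per the labels' protocols. The authors deposited 1 table of TPM values for 40271 features, rescaled to nearly the same total in every library, so read depth is unknown and no counting interval was computed. FastQC, Trimmomatic and RSEM are named in the submitters' processing notes, and their versions and the genome build are not given in the sources used here. Of the 37 columns, 4 (hindgut heat shock) could be matched to a group but not to a single sample. Labels call replicates independent biological samples.

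The members and all gene lists were chosen with earlier results of these data known. Log2(TPM + 1) of features at 1 TPM or more in at least 2 of 29 libraries (69.8% of the table) was fitted with limma 3.58.1 in R 4.3.3. The fit had a mean for each of 11 groups and a trended prior (18 residual and 3.84 prior degrees of freedom). It was tried on simulated data with noise independent between libraries, so deviations shared by same-numbered libraries were not covered. The fold changes understate low genes. Benjamini-Hochberg adjustment ran over all 28108 features of a comparison. Named were all members, library values of the 10 with the highest FG_endo mean, the called members with the largest differences (6 a direction, 4 for dorsal and interactions), threshold neighbours, other gene copies and dkk1, axin2, sp5, cdx2, hhex, szl and bambi as checks. RefSeq symbols matched 14 members. Reads shared by near-identical .L and .S copies may be split between them by the counting, so copies were also summed.

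In the inhibitor groups, same-numbered libraries deviated together from their group means (r from 0.256 to 0.562 over 45 pairs), against -0.410 to 0.120 for 90 pairs of different numbers, so the numbers were taken to pair samples and the number served as a block in an alternative fit. Deviations within a group cancel out, so these ranges are not independent of each other. Other alternatives changed the pseudocount, filter, scaling, copies, libraries fitted and the membership thresholds, and left out each library. Leaving out the number 1 inhibitor libraries together, leaving out hindgut heat shock libraries 23 and 25 together, and pairing 12 with 14 and 23 with 25 by the first digit of their headers were chosen after seeing the data. Within these pairs r was 0.492. With 2 libraries a group, the value across them is then fixed at -0.492 and adds nothing. Foregut heat shock libraries of the same number had r of 0.505, and the block fit paired them as well.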

Additional observations from a re-analysis of the deposited data

How the results depend on the processing

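No direction of a called difference reversed under the alternatives run, and 3512 of 3612 recomputed values of single members kept their side of the threshold while 100 crossed it. Among those that kept it, 225 values that were not called changed sign or became 0. The membership count of 17 became 34 at a 3-fold and 8 at a 6-fold threshold, 27 at 5 TPM or more, 9 with a ratio pseudocount of 5, and 14 to 24 when single layer libraries were left out. Counts of members called held at 12 to 14 for HG_DMSO against FG_DMSO (13 in the report) and 9 to 12 for Dorsal against FG_DMSO (11). The HG_noHS against FG_noHS count of 9 was 3 with only the groups compared, and 4 to 9 with a library left out. The FG_BIO count of 1 was 4 with a pseudocount of 5, 2 with copies summed, and 0 with median-of-ratios scaling, with only the groups compared or without the number 1 libraries, and 0 to 2 with a library left out. The FG_DMH1 count of 0 was 1 without the number 1 libraries and 0 to 1 with a library left out. The HG_DMH1 count of 0 was 1 with a pseudocount of 0.1, 2 with copies summed and 0 to 1 with a library left out. The FG_BIO against FG_DMH1 count of 3 was 0 with a pseudocount of 0.1 and 0 to 3 with a library left out. The DMH1 interaction count of 0 was 1 with a pseudocount of 0.1. Apart from fewer libraries or other scaling, the cause was not tested.

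With the replicate block, the counts were 4 for FG_BIO, 1 for FG_DMH1, 13 for HG_DMSO against FG_DMSO, 4 for FG_BIO against FG_DMH1 and 1 for the DMH1 interaction, and it changed no other call of a member. Over all features the block raised calls from 2556 to 4683 for FG_BIO, 279 to 723 for FG_DMH1 and 2680 to 4320 for region. Median-of-ratios scaling moved the median of all features from -0.12 to 0.00231 for region and from -0.24 to -0.03 for Dorsal.

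Hindgut heat shock columns carry no number of the titles. With the replicate block on pairs by the first digit (12 with 14, 23 with 25), chosen after seeing the data, the counts stayed 0 for the hindgut heat comparison and the heat interaction. Values near 1 TPM, and groups of 2 libraries, limit what these comparisons can show. FG_endo, with 2 unequal libraries, limits the membership itself.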
